A study of Mus musculus with 80 samples.

Results

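Gamma radiation at 100 cGy was compared with sham exposure in male mice. The members are the 20 libraries labelled male, normal diet and either gamma or sham, out of 80 in the series, and their labels define them. Each library was made from left ventricular tissue, the main pumping chamber of the heart, of C57Bl/6J mice. Absorbed dose is given in centigray (cGy). The male gamma group (normal diet, 100 cGy) holds 10 libraries with title numbers 16 to 20 and 36 to 40, and the male sham group (normal diet, 0 cGy) holds 10 with title numbers 6 to 10 and 26 to 30. In each group replicates 1 to 5 carry title numbers up to 20 and replicates 6 to 10 carry numbers from 21. What these runs of numbers stand for is not stated by the labels, and the run entered the fit as a term. Within each run the sham and gamma libraries hold separate blocks of title numbers. Place in the title order and exposure therefore cannot be told apart, and the run term does not separate them. The sources used here give no age, time since exposure or hour of collection. The labels also do not state that the libraries came from separate animals, so the p-values rest on a spread between libraries that may be technical. For context, 10 male mixed field libraries (normal diet, 50 cGy) and 10 female gamma and 10 female sham libraries (normal diet, 100 and 0 cGy) were used as well.

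Ionizing radiation breaks DNA, and cells answer through p53, a transcription factor that switches on genes for cell cycle arrest, repair and cell death. DNA that reaches the cytosol can be sensed as if it came from a virus, which turns on interferon and, through it, genes of antigen presentation. Major histocompatibility complex (MHC) class II molecules are carried mainly by macrophages, dendritic cells and B cells, which are a minority in heart muscle. In bulk tissue, fewer or more cells of a type and less or more RNA per cell cannot be told apart.

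Total counts were 14209221 to 16991679 in sham and 14870036 to 16549851 in gamma libraries of the first run. In the second run they were 14135708 to 17994738 in sham and 17019624 to 19304936 in gamma libraries. A pair of male libraries stood apart. In gamma replicate 10 the 28 listed T and natural killer cell markers summed to 439 CPM (counts scaled to the library total), against 13.6 to 23.1 CPM in the other gamma libraries and 10.8 to 18.3 CPM in sham. The T cell receptor chain Trac was 20.5 CPM there and at most 1.09 CPM in the other gamma libraries. Between 1 and 6 of the 28 markers were at 0 in sham libraries and between 0 and 4 in gamma libraries. The atrial growth factor gene Bmp10 stood in sham replicate 6 at 152 CPM, against at most 0.859 CPM in the other sham libraries. Myl7, an atrial myosin light chain, ran from 0.0572 to 194 CPM in sham and from 0 to 243 CPM in gamma libraries. The ribosomal RNA locus Rn18s-rs5 took 0.293 to 3.22% of sham and 0.161 to 3.29% of gamma counts, with first-run medians of 1.63% and 0.265%. The library labelled female gamma replicate 7 held 0.138 CPM of the X-inactivation RNA Xist and 0 CPM of the Y-linked Ddx3y, while the other female libraries held at least 103 CPM of Xist. Several comparisons with females are therefore also given without it, and the others include it.

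No gene passed the test for gamma against sham in males. Of 14183 genes tested with edgeR's quasi-likelihood test, 0 (0%) had a Benjamini-Hochberg adjusted p under 0.05, and the smallest adjusted p was 0.294. At an unadjusted p under 0.05 there were 872 genes (6.15%), where 709 are expected with no difference. Of these 565 (3.98%) were higher and 307 (2.16%) lower in gamma libraries. A log2 difference above 0 was found for 7427 genes (52.4%), and the median over all genes was 0.01. In 0 genes (0%) did every gamma library lie on one side of every sham library. Without gamma replicate 10 there were 0 calls and 720 genes at an unadjusted p under 0.05, and without both outlying libraries 0 and 808. Without sham replicate 5 there were 1428 such genes and without gamma replicate 7 there were 1325, again with 0 calls. DESeq2 called 3 genes, limma voom 0, and edgeR without a filter on low counts 5. The differences described from here on are log2 differences of gamma minus sham, with n = 10 per group, and none of the gamma against sham values is a call by edgeR's quasi-likelihood test.

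Xlr4a, an X-linked gene of a family expressed in lymphocytes (chromosome X, 72117936 to 72126140 in GRCm39), had the smallest p. It lay near the detection limit, at 0 to 0.933 CPM in sham (median 0.150) and 0.380 to 2.62 CPM in gamma libraries (median 1.44). All 10 gamma libraries exceeded the sham median, while the ranges overlapped. The difference was 2.51 ± 0.50 (SE, edgeR adjusted p = 0.294), and it was 1.99 in the first run and 3.22 in the second. DESeq2 called it with an adjusted p of 0.00316. Close copies of this gene could share its reads, so the value is uncertain.

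Smpd2 encodes a neutral sphingomyelinase, which releases ceramide from the membrane lipid sphingomyelin (chromosome 10, 41361638 to 41366481). Its level was 29.4 to 36.9 CPM in sham (median 34.2) and 25.3 to 31.8 CPM in gamma libraries (median 28). Every gamma library lay below the sham median, and 6 of 10 lay below every sham library. The difference was -0.27 ± 0.055 (SE, edgeR adjusted p = 0.294), at -0.32 in the first run and -0.22 in the second, and DESeq2 called it (adjusted p = 0.0130). Mical1 and Ppil6 overlap Smpd2 on the other strand, and since no source used here states the counting strand their reads may be shared. Sptlc2, a subunit of the enzyme that starts sphingolipid synthesis, was 14.8 to 20.1 CPM in sham and 16.8 to 29.3 CPM in gamma libraries and differed the other way, by 0.29 ± 0.078.

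Vgll3, a cofactor of TEAD transcription factors (chromosome 16, 65611923 to 65663369), was 3.23 to 5.17 CPM in sham (median 3.81) and 3.32 to 9.70 CPM in gamma libraries (median 6.72). For Vgll3, 8 of 10 gamma libraries lay above every sham library, and gamma replicates 3 and 9, at 5.06 and 3.32 CPM, lay among the sham values. The difference was 0.75 ± 0.15 (SE, edgeR adjusted p = 0.294) and 0.74 ± 0.16 without the pair of outlying libraries. Without gamma replicate 9 it was 0.82 ± 0.13 with an edgeR adjusted p of 0.0398, the only call among the 20 fits that each left out 1 library. DESeq2 called Vgll3 with an adjusted p of 0.0130.

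**Figure D1:**
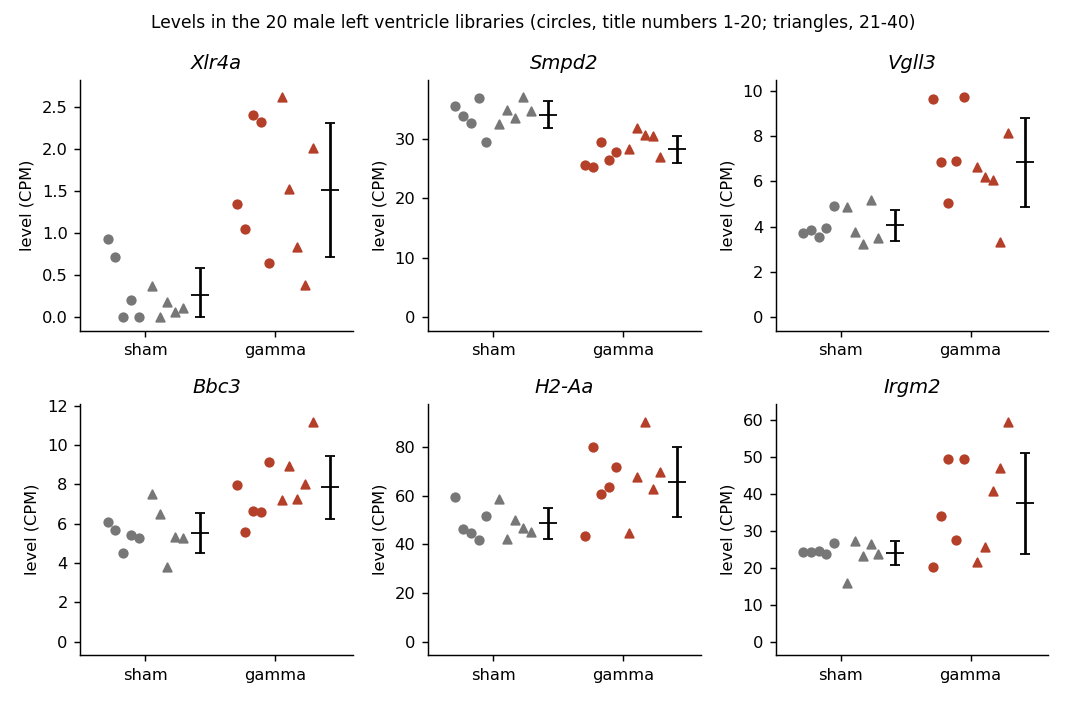
Level in CPM (y axis) of 6 genes in each of the 10 male sham and 10 male gamma libraries, with circles for title numbers 1 to 20 and triangles for 21 to 40. Bars give the mean ± SD of each group. For Smpd2 the gamma libraries sit between 25.3 and 31.8 CPM, all below the sham median, while for Vgll3 a single gamma triangle lies low at 3.32 CPM.

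The next 17 genes by p shared an edgeR adjusted p of 0.598, and 16 of them were higher in gamma libraries. Several act in inflammation. Ccl5, a chemokine that attracts T cells, was 0.180 to 1.11 CPM in sham (median 0.800) and 0.306 to 5.54 CPM in gamma libraries (median 1.55). For Ccl5, 9 of 10 gamma libraries lay above every sham library, and the highest value was that of the T cell rich gamma replicate 10. The Ccl5 difference was 1.29 ± 0.31, and 1.01 ± 0.27 without that library. Ccl8, a chemokine for monocytes, was 1.44 to 6.06 CPM in sham (median 2.66) and 2.51 to 17.9 CPM in gamma libraries (median 4.86), a difference of 1.14 ± 0.31. Its highest values were 17.9 and 14.8 CPM in gamma replicates 9 and 10. C5ar2, a receptor for the complement fragment C5a, was 0.798 to 2.22 CPM in sham and 1.45 to 2.73 CPM in gamma libraries (0.67 ± 0.17).

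Vwf, the clotting factor made by endothelium, was 50.2 to 87.9 CPM in sham (median 62.6) and 54.3 to 193 CPM in gamma libraries (median 99.1). Gamma replicate 10 was again highest, and gamma replicates 1 and 5 lay within the lower sham values. The difference was 0.66 ± 0.17, or 0.52 ± 0.14 without gamma replicate 10. Over the 20 endothelial markers 13 were above 0, with a median of 0.02. Plvap, the diaphragm protein of fenestrated endothelium, differed by 0.37 ± 0.18. No endothelial marker that was lower is named here. Summed over the markers, the means were 2621 CPM in sham and 2630 CPM in gamma libraries.

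Among genes of cardiac excitation, the pacemaker channel Hcn2 was 24.1 to 36.6 CPM in sham (median 27.3) and 27.6 to 37.5 CPM in gamma libraries (median 33.9), a difference of 0.27 ± 0.069. Its highest sham value was that of replicate 5, inside the upper gamma values. Gja1, which encodes connexin 43, the gap junction protein that couples cardiomyocytes, was 267 to 417 CPM in sham (median 352) and 337 to 479.8 CPM in gamma libraries (median 410.3) (0.23 ± 0.061). Of 25 ion channel genes 10 were above 0, with a median of -0.02. Sstr3, a somatostatin receptor, was the one of these 17 that was lower in gamma libraries, at 4.06 to 11.2 CPM in sham and 2.82 to 6.79 CPM in gamma libraries (-0.60 ± 0.16). The RNA exonuclease Xrn1, the RNA-binding protein Nufip2, the actin-binding protein Enc1 and Hdgfl3 differed by 0.34 ± 0.088, 0.28 ± 0.076, 0.32 ± 0.084 and 0.31 ± 0.078. Hs3st5, an enzyme that sulfates heparan sulfate, differed by 0.65 ± 0.17.

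Interferon-stimulated genes leaned upward in gamma libraries over nearly the whole list. Of 46 genes, all tested, 44 had a log2 difference above 0, against 52.4% of all genes, and the median was 0.31. At an unadjusted p under 0.05, 26 were higher (56.5% of the list against 3.98% of all genes) and 0 were lower, and none had an adjusted p under 0.05. B2m, the light chain of MHC class I, was 227 to 287 CPM in sham (median 258) and 206 to 498 CPM in gamma libraries (median 320.0). For B2m, 8 of 10 gamma libraries lay above every sham library, and gamma replicate 6 lay below them all. Its difference was 0.36 ± 0.11 (SE, edgeR adjusted p = 0.598). Ifit2, which binds viral RNA and restrains its translation, was 11.7 to 19.2 CPM in sham and 13.3 to 29.8 CPM in gamma libraries (0.38 ± 0.11).

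Igtp, of the list, and Irgm2, which is not in it and was among the 20 genes of smallest p, are interferon-inducible GTPases that act against intracellular parasites. Irgm2 was 16 to 27.4 CPM in sham (median 24.3) and 20.3 to 59.7 CPM in gamma libraries (median 37.5), with 7 of 10 gamma libraries above every sham library (0.64 ± 0.17). Igtp was 15.5 to 23.7 CPM in sham (median 19.2) and 13 to 58 CPM in gamma libraries (median 29), with 6 gamma libraries above and 2 below every sham library (0.69 ± 0.21). The genes overlap on the same strand (Irgm2 on chromosome 11, 58090444 to 58113615, Igtp on chromosome 11, 58089840 to 58098417), so their counts may not be independent.

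Promoters of this list often hold the interferon-stimulated response element, the site of interferon-activated transcription factors. RefSeq promoter windows (GRCm38.p6, 250 bases before to 50 after a transcription start) were found for 32 of the 46 genes, 38 windows in all. The element's core, searched on both strands as GAAA, any 2 bases and GAAA, lay in 16 of these windows (42.1%) and in 1131 of all 32851 windows (3.44%). It lay in 0 of 8 windows of 7 matched MHC class II genes. A match describes the letters and shows no binding. The windows of the list genes Igtp (chr11:58199306-58199605) and B2m (chr2:122147437-122147736) and of Irgm2 (chr11:58214727-58215026), which is outside the list and not counted in it, are shown because these genes are named above. All are on the plus strand, and capitals mark the matched core.
Igtp: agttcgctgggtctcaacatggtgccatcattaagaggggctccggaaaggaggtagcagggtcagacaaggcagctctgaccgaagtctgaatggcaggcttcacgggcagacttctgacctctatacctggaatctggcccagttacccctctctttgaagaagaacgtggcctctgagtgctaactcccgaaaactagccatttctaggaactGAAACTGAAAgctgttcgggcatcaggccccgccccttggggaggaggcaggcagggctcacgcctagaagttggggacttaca
B2m: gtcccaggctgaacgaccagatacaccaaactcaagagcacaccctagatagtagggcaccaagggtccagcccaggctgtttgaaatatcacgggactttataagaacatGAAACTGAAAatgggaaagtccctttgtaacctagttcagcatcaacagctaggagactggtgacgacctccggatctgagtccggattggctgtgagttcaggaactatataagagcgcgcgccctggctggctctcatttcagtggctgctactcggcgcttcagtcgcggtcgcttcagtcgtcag
Irgm2: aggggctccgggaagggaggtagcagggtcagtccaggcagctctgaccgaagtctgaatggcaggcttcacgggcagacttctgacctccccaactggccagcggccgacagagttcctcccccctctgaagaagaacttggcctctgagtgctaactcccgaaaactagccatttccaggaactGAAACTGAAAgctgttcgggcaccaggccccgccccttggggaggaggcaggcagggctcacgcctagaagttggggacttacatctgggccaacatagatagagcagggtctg

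The lean was uneven between libraries. The list summed to 801 to 1089 CPM in sham (median 947) and 851 to 1843 CPM in gamma libraries (median 1155). Gamma replicates 10 and 9 were highest, at 1843 and 1574 CPM, while gamma replicates 6 and 4, at 851 and 880.1 CPM, lay below the sham median. Without gamma replicate 10 the list had 43 of 46 genes above 0, a median of 0.24 and 16 genes higher at an unadjusted p under 0.05. Without that library and sham replicate 6 the values were 44 of 46, 0.26 and 18. Within the first run, which holds neither library, 45 of 46 were above 0 (median 0.26), against 50.6% of all genes. Within the second run 45 of 46 were above 0 (median 0.35), against 53.2%.

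MHC class II genes, which present peptides to helper T cells, lay above 0 as a group. All 9 genes tested of 10 listed were above 0, with a median of 0.42, and 6 were higher at an unadjusted p under 0.05 (3.98% of all genes). H2-Aa, the alpha chain of the I-A molecule (chromosome 17, 34493404 to 34506798), was 41.8 to 59.6 CPM in sham (median 46.5) and 43.6 to 90.4 CPM in gamma libraries (median 65.8). For H2-Aa, 8 of 10 gamma libraries lay above every sham library, and gamma replicates 1 and 6, at 43.6 and 44.7 CPM, lay among the sham values. The H2-Aa difference was 0.43 ± 0.11 (SE, edgeR adjusted p = 0.598), and 0.45 ± 0.12 without the pair of outlying libraries. H2-Eb1, the beta chain of I-E, overlaps H2-Aa on the other strand and was 35.9 to 60.8 CPM in sham and 39.5 to 83 CPM in gamma libraries (0.42 ± 0.12). H2-Ab1, the partner chain of H2-Aa, was 35.6 to 54.2 CPM in sham and 34.7 to 72.6 CPM in gamma libraries (0.38 ± 0.11). Summed over the list, gamma replicates 1 and 6 held 205 and 227 CPM and the other 8 held at least 300.2 CPM, against 214 to 313 CPM in sham. Over the 20 fits without 1 library the median ranged from 0.35 to 0.48, with 9 of 9 above 0 in each.

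**Figure D2:**
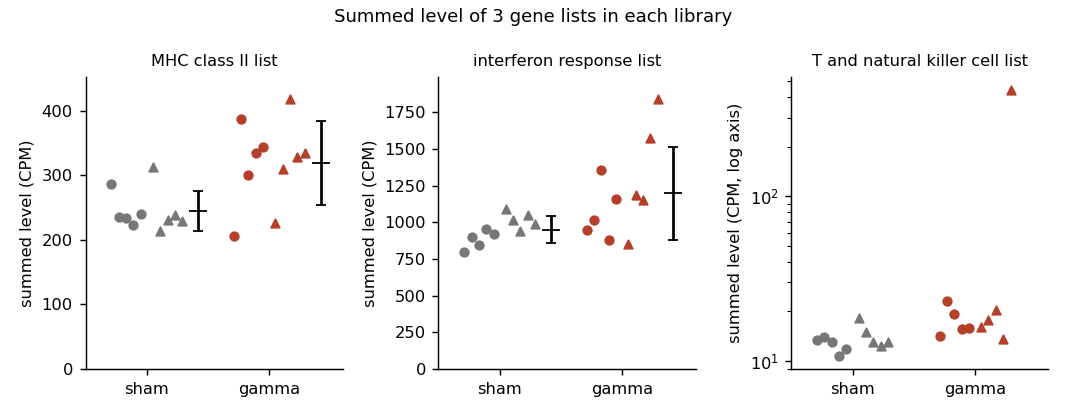
Summed CPM (y axis) of the MHC class II, interferon response and T and natural killer cell lists in each male sham and gamma library, the last on a log axis. Circles are title numbers 1 to 20 and triangles 21 to 40. Gamma replicate 10 stands alone on the T and natural killer cell axis at 439 CPM, and its MHC class II sum of 335 CPM lies among those of other gamma libraries.

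Markers of the cells that could carry these genes were read alongside. Of 26 macrophage markers tested of 27 listed 24 were above 0 (median 0.20) and 4 were higher at an unadjusted p under 0.05 (15.4%, against 3.98% of all genes), among them the lysosomal protease Ctss and the mannose receptor Mrc1. Ctss was 11.8 to 19.9 CPM in sham (median 13.6) and 12.4 to 26.6 CPM in gamma libraries (median 20.6) (0.47 ± 0.13), and Mrc1 differed by 0.26 ± 0.094. Leaving out 1 library gave 2 to 10 such markers, and 25 (median 0.33) in the first run and 20 (median 0.09) in the second were above 0. Summed macrophage markers were 365 to 605 CPM in sham and 398 to 742 CPM in gamma libraries. Their part in the MHC class II and interferon values was not tested. Of 28 T and natural killer cell markers 6 passed the filter on low counts. The median of those 6 was 1.39, and 0.21 without that library. The T cell genes Il7r and Cd28 were 69.3 and 21.2 CPM in it. Of 11 B cell markers tested of 16 listed 9 were above 0 (median 0.10), with the antibody chains Igkc and Ighm at 0.80 ± 0.28 and 0.36 ± 0.13.

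**Figure D3:**
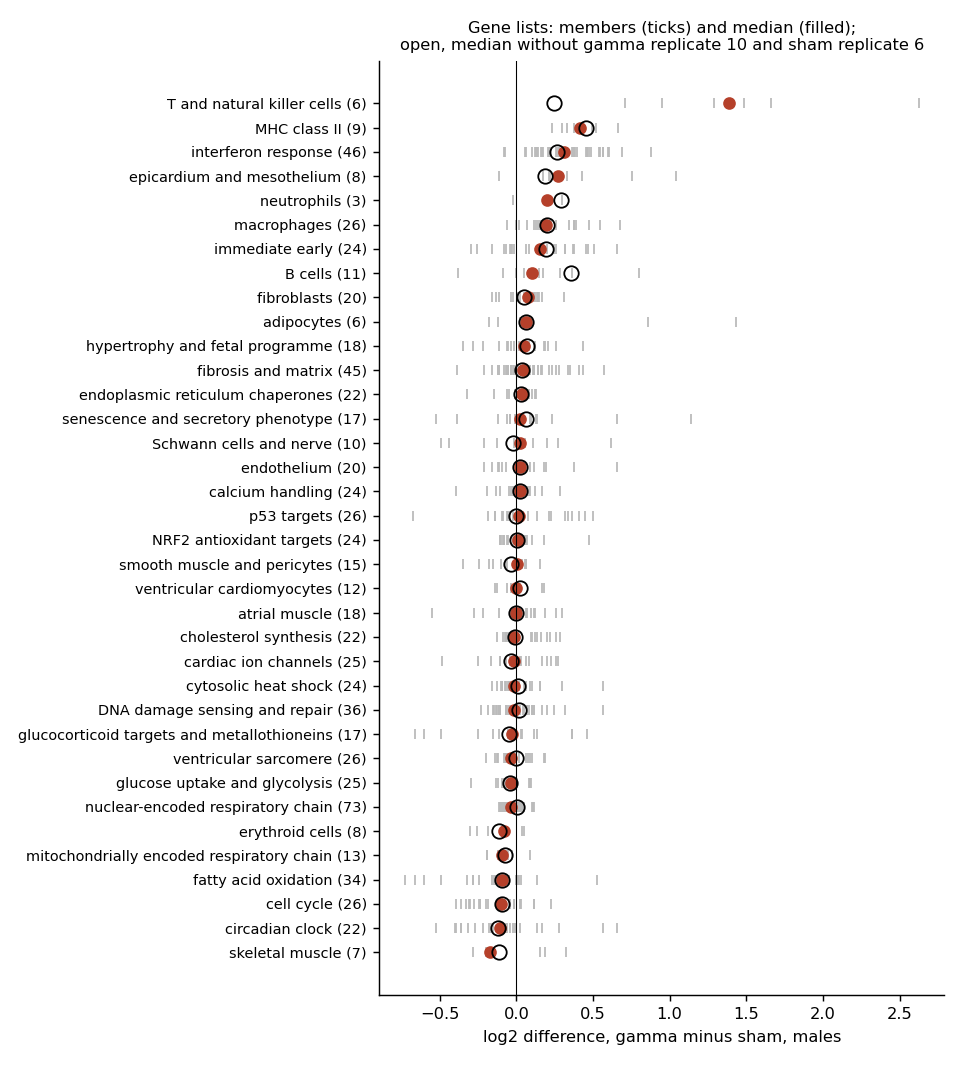
Log2 difference of gamma minus sham (x axis) for 36 gene lists in males. Small ticks are the tested members, filled points the list medians, and open points the medians without gamma replicate 10 and sham replicate 6. The median of T and natural killer cells is 1.39 with all libraries and 0.24 without that pair, while that of MHC class II without the pair is 0.45.

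The p53 targets lay on both sides of 0. Of 26 tested of 27 listed, 15 were above 0 (median 0.01), with 5 higher (19.2%, against 3.98% of all genes) and 2 lower (7.69%, against 2.16%) at an unadjusted p under 0.05. The 2 lower genes are not named here. Without gamma replicate 10 the differences in the p53 list ran from -0.80 to 0.45. Bbc3, which encodes the cell death protein PUMA, was 3.79 to 7.53 CPM in sham (median 5.36) and 5.58 to 11.2 CPM in gamma libraries (median 7.61). For Bbc3 all 10 gamma libraries lay above the sham median and 5 above every sham library (0.50 ± 0.12). Polk, a DNA polymerase that copies past damaged bases, was 3.80 to 7.13 CPM in sham (median 4.19) and 4.86 to 8.54 CPM in gamma libraries (median 6.13) (0.45 ± 0.12). Zmat3, an RNA-binding protein and p53 target, was 12.4 to 21.4 CPM in sham (median 14.4) and 13.3 to 24.9 CPM in gamma libraries (median 18.5) (0.34 ± 0.10). The cell cycle inhibitor Cdkn1a, chosen after its values were seen because it is the best known target of p53, was 19.6 to 54.4 CPM in sham (median 26.3) and 24.1 to 43.6 CPM in gamma libraries (median 27.1) and differed by 0.14 ± 0.14. Of 36 DNA repair genes tested of 38 listed 17 were above 0, and 3 were higher at an unadjusted p under 0.05 (8.33%, against 3.98% of all genes). The damage kinases Prkdc and Atm and the break repair factor Rif1 differed by 0.32 ± 0.10, 0.56 ± 0.27 and 0.25 ± 0.11. No repair gene that was lower is named here. Without gamma replicate 10 the differences in the repair list ran from -0.24 to 0.54.

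Genes of fatty acid oxidation, the main fuel pathway of the heart, leaned downward with all libraries included. Of 34 genes 6 were above 0 (median -0.10), and 5 were lower and 0 higher at an unadjusted p under 0.05 (2.16% of all genes lower). Ucp3, a mitochondrial carrier of the uncoupling protein family, was 29.4 to 88.2 CPM in sham (median 62.9) and 21.3 to 80.5 CPM in gamma libraries (median 40.5) (-0.60 ± 0.19), and gamma replicate 3 alone was high in its group. Angptl4, a secreted inhibitor of lipoprotein lipase, belongs to the glucocorticoid target list. It was 7.11 to 28.8 CPM in sham (median 12.8) and 5.69 to 15.9 CPM in gamma libraries (median 7.42) (-0.66 ± 0.24). Without gamma replicate 10 the fatty acid oxidation list had 8 of 34 above 0 and a median of -0.06. Without that library and sham replicate 6 the values were 6 of 34 and -0.09. Over the 20 fits without 1 library the median ranged from -0.13 to -0.06, with 2 to 8 of 34 above 0. Summed over the list, first-run means were 19017 CPM in sham and 17515 CPM in gamma libraries. In the second run the means were 15993 CPM in sham and 16072 CPM in gamma libraries, so the sum was not lower there.

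The respiratory chain and glycolysis lists differed between the runs. The nuclear respiratory chain list also depended on which library was left out. Of 73 nuclear respiratory chain genes 18 were above 0 with a median of -0.04, 39 of 73 (median 0.00233) without gamma replicate 10 and 3 of 73 (median -0.11) without gamma replicate 7. By run, 6 (median -0.09) in the first run and 45 (median 0.01) in the second were above 0. Glycolysis had 4 of 25 (median -0.04) above 0 and the mitochondrially encoded chain 1 of 13 (median -0.09). By run glycolysis had 2 (median -0.11) in the first run and 13 (median 0.01) in the second, and the mitochondrially encoded chain 1 (median -0.18) in the first run and 9 (median 0.03) in the second. In cholesterol synthesis 10 of 22 (median -0.02) were above 0, including the synthesis enzyme Cyp51 (0.20 ± 0.084). The ventricular sarcomere had 7 of 26 (median -0.04) above 0, with the Z-disc protein Actn2 at -0.20 ± 0.066, and calcium handling had 15 of 24 (median 0.02).

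Matrix and stress lists were mixed. In fibrosis and matrix 25 of 45 (median 0.05) genes were above 0, and 22 of 45 (median -0.01) without gamma replicate 10. The median had opposite signs in the runs, with 34 (median 0.13) in the first run and 16 (median -0.07) in the second above 0. Lox, which cross-links collagen, and Ccn2, a matricellular growth factor, differed by 0.57 ± 0.18 and 0.44 ± 0.19. The matrix protease Mmp3 differed by 0.66 ± 0.21. The fibroblast list had 15 of 20 (median 0.08) above 0, with Clec3b at 0.31 ± 0.10. Immediate early genes had 15 of 24 (median 0.16) above 0, with 21 of 24 in the first run and 10 of 24 in the second. Their transcription factors Fosl2 and Klf4 differed by 0.46 ± 0.17 and 0.25 ± 0.10. Among glucocorticoid targets 7 of 17 (median -0.03) were above 0, with Zbtb16 at -0.60 ± 0.18, Cebpd at 0.46 ± 0.16 and Angptl4, given above, lower. Cytosolic heat shock had 11 of 24 (median -0.02) above 0, NRF2 targets 14 of 24 (median 0.01) and cell cycle genes 5 of 26 (median -0.10), with 0 genes of each at an unadjusted p under 0.05. By run, 14 (median 0.03) in the first run and 5 (median -0.24) in the second of the cell cycle genes were above 0. Endoplasmic reticulum chaperones had 17 of 22 (median 0.04), with the stress factor Ddit3 at -0.32 ± 0.11. The senescence list had 9 of 17 (median 0.03) and the hypertrophy and fetal programme 10 of 18 (median 0.05) above 0.

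Lists of other cell types of the heart and its surroundings had few members past the filter in several cases. Ventricular cardiomyocyte markers had 6 of 12 (median -0.000472) above 0, and smooth muscle and pericytes 8 of 15 (median 0.01). Epicardium and mesothelium had 7 of 8 (median 0.27), from 14 listed. Atrial muscle had 9 of 18 (median -0.000689), and Schwann cells and nerve 5 of 10 (median 0.02). Adipocytes had 4 of 6 (median 0.06) of 13 listed, neutrophils 2 of 3 (median 0.20) of 12, erythroid cells 2 of 8 (median -0.08) of 12 and skeletal muscle 3 of 7 (median -0.17) of 15. The 8 erythroid genes had opposite signs in the runs, with 0 (median -0.74) in the first run and 8 (median 0.47) in the second above 0. Their median ranged from -0.28 without gamma replicate 7 to 0.26 without sham replicate 4.

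Circadian clock genes, whose transcripts cycle over the day, differed in both directions. Of 22 tested 6 were above 0 (median -0.11), with 4 higher (18.2%, against 3.98% of all genes) and 7 lower (31.8%, against 2.16%) at an unadjusted p under 0.05. Bmal1, the activator at the core of the clock, was 5.11 to 11.6 CPM in sham (median 7.07) and 7.76 to 15.8 CPM in gamma libraries (median 10.8), with all 10 gamma libraries above the sham median (0.56 ± 0.13). Npas2, which pairs with it, was 1.94 to 5.93 CPM in sham and 2.99 to 6.84 CPM in gamma libraries (0.66 ± 0.19). The repressor Per2 was 10.2 to 23.9 CPM in sham and 7.04 to 19.5 CPM in gamma libraries (-0.53 ± 0.17), and Tef, a clock-controlled transcription factor, was 107 to 196 CPM in sham and 117 to 157 CPM in gamma libraries (-0.27 ± 0.081). Since the hour of collection is not given, its part in these values was not tested.

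Clock genes also differed between gamma and mixed field males, where the test made calls. These groups differ in field, in dose (100 and 50 cGy) and in title numbers, which are 1 to 5 and 21 to 25 for mixed field. Field, dose and place in the title order cannot be told apart here, and the hour of collection is not given. Of 14267 genes, 48 (0.336%) had an edgeR adjusted p under 0.05, 18 higher (0.126%) and 30 lower (0.21%) in gamma libraries, and 45.8% of all genes were above 0. In the clock list 2 of 22 were called higher and 9 lower. Bmal1 was 1.53 to 7.86 CPM in mixed field (median 2.08) and 7.74 to 15.7 CPM in gamma libraries (median 10.8), a difference of 1.93 ± 0.25 (edgeR adjusted p = 0.000283), and Npas2 was the other called higher (1.01 ± 0.22). Tef was 158 to 262 CPM in mixed field (median 241) and 117 to 156 CPM in gamma libraries (median 136), with no overlap (-0.76 ± 0.085, adjusted p = 4.73e-05). Per2 was 16.8 to 43.2 CPM in mixed field (median 35.3) and 7.01 to 19.4 CPM in gamma libraries (median 13.2) (-1.33 ± 0.16, adjusted p = 9.65e-05). The other clock genes called lower, named here after their values were seen, were the outputs Dbp (-0.71 ± 0.13) and Hlf (-0.82 ± 0.15), the repressors Per3 (-0.84 ± 0.14) and Cry2 (-0.49 ± 0.10), the cell cycle kinase Wee1 (-0.91 ± 0.12), the deubiquitinase Usp2 (-0.42 ± 0.088) and the tetraspanin Tspan4 (-0.58 ± 0.077). The smallest p belonged to Slc41a3, a magnesium transporter outside the list, at 33.2 to 58.6 CPM in mixed field (median 51.5) and 70.7 to 112 CPM in gamma libraries (median 89.8) (0.92 ± 0.10, adjusted p = 4.44e-05). Without gamma replicate 10 there were 37 calls, of which 1 clock gene was higher and 8 lower.

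Mixed field and gamma libraries were compared with the same sham libraries, so those comparisons are not independent and are set side by side only. Mixed field against sham had 8 of 14131 genes (0.0566%) at an edgeR adjusted p under 0.05. The mixed field minus sham difference was -1.38 ± 0.26 for Bmal1, 0.48 ± 0.10 for Tef and 0.79 ± 0.17 for Per2, beside 0.56, -0.27 and -0.53 for gamma minus sham. In the interferon list 43 of 46 were above 0 (median 0.24) for mixed field minus sham, beside 44 of 46 (median 0.31) for gamma minus sham. In the MHC class II list 4 of 9 were above 0 for mixed field, beside 9 of 9 for gamma. The share of all genes above 0 for mixed field minus sham is not reported here.

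**Figure D4:**
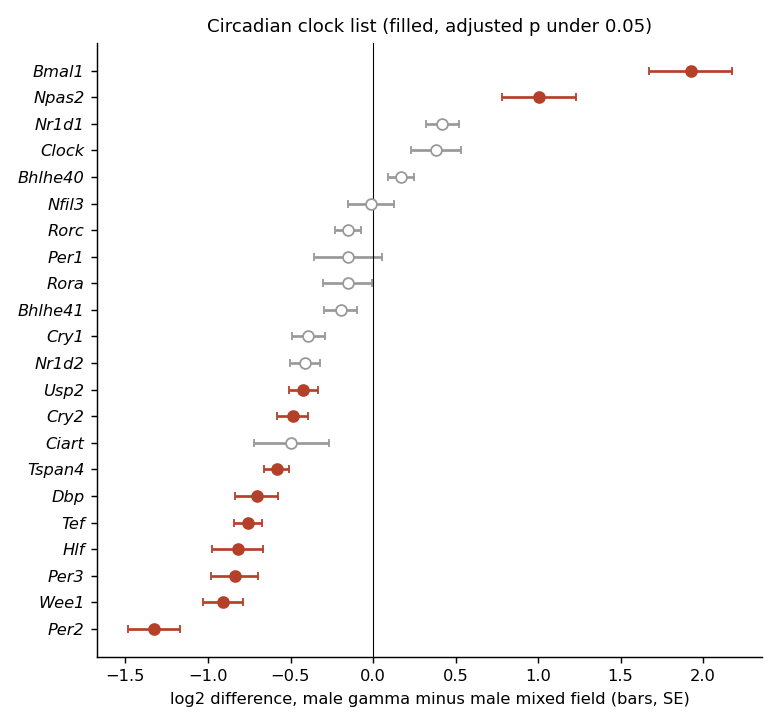
Log2 difference of gamma minus mixed field in males (x axis) for the 22 clock genes, with bars of ± 1 SE. Filled points have an edgeR adjusted p under 0.05. Bmal1 lies farthest to the right at 1.93 and Per2 farthest to the left at -1.33.

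RefSeq windows were found for 18 of the 22 clock genes, 24 in all. The E-box CACGTG, the site of the BMAL1 partner complex, lay in 7 of them (29.2%), in 6 of 30 windows of p53 targets (20%) and in 7.15% of all windows. The motif TAGGTCA, the site of ROR and REV-ERB receptors, lay in 2 of 24 and 2.61% of all. The windows of Bmal1 (chr7:113207261-113207560, named Arntl in RefSeq) and Tef (chr15:81802423-81802722), both on the plus strand of GRCm38.p6, are shown since these genes differed in opposite directions. Of 2 windows of Bmal1 1 held TAGGTCA, and of 2 windows of Tef 2 held CACGTG. The window shown for each gene is the first by position that holds its motif. Capitals mark TAGGTCA in Bmal1 and CACGTG in Tef.
Bmal1: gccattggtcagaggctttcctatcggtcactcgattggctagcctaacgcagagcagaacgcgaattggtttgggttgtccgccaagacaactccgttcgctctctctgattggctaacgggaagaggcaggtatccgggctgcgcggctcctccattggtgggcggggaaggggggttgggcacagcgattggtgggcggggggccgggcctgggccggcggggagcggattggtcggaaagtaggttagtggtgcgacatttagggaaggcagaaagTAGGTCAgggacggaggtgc
Tef: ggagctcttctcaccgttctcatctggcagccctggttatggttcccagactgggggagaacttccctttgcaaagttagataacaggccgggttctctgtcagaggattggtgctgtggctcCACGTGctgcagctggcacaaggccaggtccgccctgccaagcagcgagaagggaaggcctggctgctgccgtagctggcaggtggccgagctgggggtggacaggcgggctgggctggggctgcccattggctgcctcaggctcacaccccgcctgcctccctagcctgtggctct

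The difference between gamma and sham was also compared between runs and between sexes. Between runs 0 of 14183 genes (0%) differed at an edgeR adjusted p under 0.05, and 340 (2.4%) at an unadjusted p under 0.05. Between sexes 0 of 15094 genes (0%) differed at an adjusted p under 0.05, and 1151 (7.63%) at an unadjusted one, of which 644 (4.27%) had the larger value in males. The male difference exceeded the female one in 51.9% of all genes. In females alone 16 genes (0.106%) were called, and 2 without female gamma replicate 7, while 48.4% of all genes were above 0.

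The interferon and MHC class II lists leaned the other way in females. Of 46 interferon genes 7 were above 0 in females (median -0.18), and 6 (median -0.17) without female gamma replicate 7. The male minus female difference was above 0 for 43 of 46 (median 0.48), and for 40 (median 0.40) without male gamma replicate 10. For MHC class II 1 of 9 was above 0 in females, and the male minus female difference was above 0 for all 9 (median 0.53, or 0.54 without female gamma replicate 7). B2m was 288 ± 47.4 CPM in female sham and 254 ± 60.6 CPM in female gamma libraries (mean ± SD). Its male minus female difference was 0.54 ± 0.16 (SE, edgeR adjusted p = 0.467), or 0.54 ± 0.17 without female gamma replicate 7. H2-Aa was 55.9 ± 13.3 CPM in female sham and 52.7 ± 12 CPM in female gamma libraries (mean ± SD). Its male minus female difference was 0.51 ± 0.19 (SE, edgeR adjusted p = 0.529), or 0.51 ± 0.19 without female gamma replicate 7. Ccl5 had a male minus female difference of 1.86 ± 0.43 (SE, edgeR adjusted p = 0.442), or 1.88 ± 0.44 without female gamma replicate 7. None of these differences passed the adjusted threshold. For B2m, H2-Aa and Ccl5 they include male gamma replicate 10, and values without it are not reported here. Macrophage markers differed alike, with 9 of 27 above 0 in females (median -0.19), and their part was not tested. Bmal1 was higher in gamma females, at 3.25 ± 1.65 CPM in female sham and 9.34 ± 5.48 CPM in female gamma libraries (mean ± SD). Its female gamma minus sham difference was 1.5 ± 0.18 (SE, edgeR adjusted p = 4.26e-06), and 1.5 ± 0.19 without female gamma replicate 7.

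**Figure D5:**
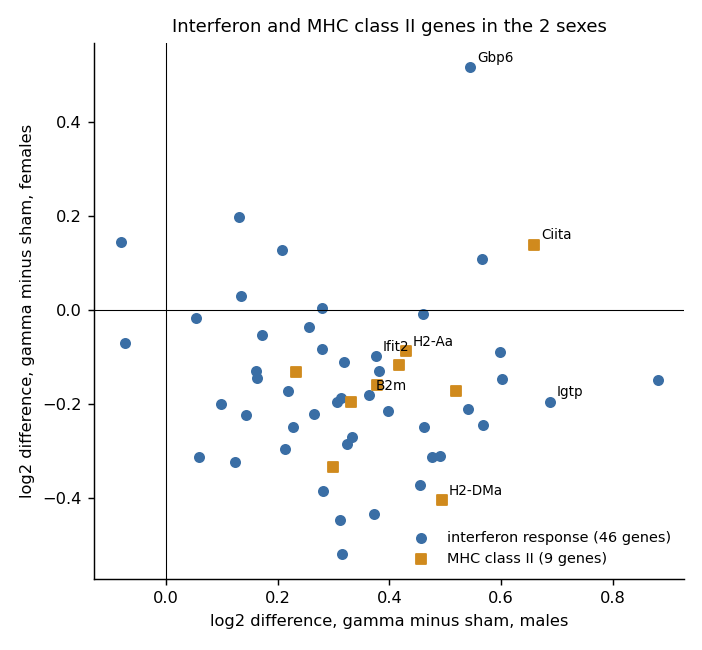
Log2 difference of gamma minus sham in males (x axis) and females (y axis) for 46 interferon and 9 MHC class II genes, 1 point per gene. Most points lie right of 0 and below 0, with 44 of 46 interferon genes above 0 in males and 7 of 46 in females.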

How the data were processed

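RNA was extracted as total RNA with RNeasy columns, selected by poly-A, made into libraries with NEBNext Ultra II and read from both ends on a NovaSeq-6000 instrument, per the labels' protocols. STAR 2.7.8a, FastQC 0.11.9 and the GRCm39 build are named in the submitters' processing notes. No source used here states which tool counted the reads, on which strand or with which annotation. The authors deposited raw read counts per gene, whole numbers that are not normalized, with 56941 genes in the table. Of these, 56323 matched the GENCODE annotation by identifier.

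Counts of the 20 male gamma and sham libraries (14135708 to 19304936 per library) were filtered with filterByExpr, which left 14183 genes holding at least 99.7% of the counts. They were scaled by TMM (factors 0.925 to 1.11) and tested with edgeR 4.0.16 in R 4.3.3, using glmQLFit and glmQLFTest with terms for the run of title numbers and for gamma. The common dispersion gave a coefficient of variation of 18%. P-values were adjusted by the Benjamini-Hochberg method over all genes tested, with a threshold of 0.05. Levels are CPM with TMM-scaled library sizes, and SE is the log2 difference divided by the root of the F statistic. Interaction terms tested differences between runs and between sexes, and gamma was also compared with mixed field males. The script was tested on simulated data.

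The rule for named genes took the 20 genes of smallest p, leaving out predicted genes, receptor and immunoglobulin segments, Y-linked genes and Xist, up to 3 of smallest p in each of 36 gene lists, up to 5 called genes of smallest p for each difference between fields, runs or sexes, and marks of outlying libraries. The text prints those that help describe a list, and results for some genes are not reported here. Reads of overlapping genes, such as Polk and Cert1, may be shared. The libraries and lists were chosen with earlier results of these data known. Alternatives were DESeq2 1.42.0, limma voom 3.58.1, RLE scaling, no filter, no run term, all 80 libraries in one fit, an Rn18s-rs5 term, each run alone, and leaving out outlying libraries, libraries above 10 CPM of Myl7, and each of the 20 in turn. The fit between sexes without female gamma replicate 7 was added after seeing the data.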

Additional observations from a re-analysis of the deposited data

Results flagged for a closer look

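In each group of 10 libraries the highest or lowest library was compared with its nearest neighbour by Dixon's test. Of 112 gene and group pairs, 21 had an outlying library, where chance gives about 1 in 20 for genes picked without regard to outliers. Several of these genes, Bmp10, Trac, Il7r and Cd28 among them, mark libraries already known to stand apart, so the count is a description and no test. Gamma replicate 10, the T cell rich library, was highest of its group for Ccl5 (5.54 CPM, next 2.67), Vwf (193 CPM, next 127), Sptlc2 (29.3 CPM, next 23.2), Cebpd (36.8 CPM, next 24.3), Il7r (69.3 CPM, next 1.39), Cd28 (21.2 CPM, next 6.03) and Trac (20.5 CPM, next 1.09). Sham replicate 6 was highest of its group for Igkc (7.96 CPM, next 3.64), Bmp10 (152 CPM, next 0.859) and Ddit3 (24.2 CPM, next 18), and lowest for Irgm2 (16 CPM, next 23.2).

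Gamma replicate 3 was highest for Ucp3 (80.5 CPM, next 44.5). Gamma replicate 2 was highest for Mmp3 (30.3 CPM, next 17.2) and lowest for Actn2 (1580 CPM, next 2103). Gamma replicate 9 was highest for Sstr3 (6.79 CPM, next 4.81). In sham, replicate 5 was highest for Hcn2 (36.6 CPM, next 28.9) and Zmat3 (21.4 CPM, next 16.6), replicate 8 for Fosl2 (65.5 CPM, next 43.2), replicate 9 for Actn2 (2950 CPM, next 2596) and Cdkn1a (54.4 CPM, next 29.5), and replicate 2 for Mmp3 (15.6 CPM, next 10.5).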

How the results depend on the processing

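The edgeR count of called genes was 0. It was 3 with DESeq2 (Xlr4a, Smpd2 and Vgll3), 5 of 33972 genes without a filter on low counts, 16 with all 80 libraries in 1 fit and 1 (Xlr4a, adjusted p = 0.0441) with the Rn18s-rs5 share as a term. Leaving out 1 of the 20 libraries gave 0 to 1 calls and 688 to 1428 genes at an unadjusted p under 0.05. The median of the T and natural killer cell list was 0.244 without both outlying libraries, 0.305 in the first run, 0.116 without libraries above 10 CPM of Myl7, and 0.215 to 1.58 when 1 library was left out. Without the libraries above 10 CPM of Myl7, which left 4 sham and 4 gamma libraries of the second run, medians were -0.389 for cell cycle, -0.0919 for fibroblasts and 0.143 for ventricular cardiomyocytes, and the Trac difference was -0.102, a reversal. Without a filter, which tests more genes, they were 0.603 for adipocytes, 0.793 for epicardium and 0.190 for skeletal muscle. The adipocyte median was 0.366 with all 80 libraries, and that of cholesterol synthesis 0.0873 in the second run. Gamma replicate 10 held 83.0 CPM of Myl7, so the fit limited by Myl7 lacks it. The first run and the fit without both outlying libraries lack it too. Without that library alone the T and natural killer cell median was 0.215 and the Trac difference 0.0393. For the other lists, apart from fewer samples or a different set of genes tested, the cause was not tested. No paired analysis was possible because male gamma and male sham libraries share no title numbers.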
